A study of Mus musculus with 8 samples.

Results

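Liver RNA sequencing was examined here for 10 genes of plasma membrane amino acid transporters, Slc38a2, Slc38a3, Slc38a4, Slc7a1, Slc7a2, Slc7a3, Slc7a5, Slc7a11, Slc3a2 and Slc1a4, which were listed by symbol from the Slc1, Slc3, Slc7 and Slc38 families. All 10 were among the 23337 gene symbols of the count files, and 9 of them were among the 14328 genes with enough reads for testing. The exception was Slc7a3. The study compared wild-type (WT) mice with HRD1Alb mice, which lack the E3 ubiquitin ligase HRD1 (encoded by Syvn1) in the liver, under a fasted and a refed condition. There were 4 groups of 2 libraries, all from the liver of C57BL/6 mice aged 12 weeks: WT fasted, HRD1Alb fasted, WT refed and HRD1Alb refed. The HRD1Alb mice are given the genotype Hrd1-/- in the labels and carry floxed Hrd1 alleles with Cre driven by the albumin promoter. That promoter is active in hepatocytes from early liver development. Liver cells in which it was never active keep the gene. The fasted mice went without food overnight, and the refed mice received food for 4 h after the same fast. Nothing in the labels says how many animals stand behind a library, so the p-values measure only the spread between these samples.

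Amino acids cross the plasma membrane of hepatocytes on carriers with different substrates and energy sources. The Slc38 proteins move small neutral amino acids together with sodium, Slc7a1, Slc7a2 and Slc7a3 carry the cationic amino acids arginine, lysine and ornithine, and Slc1a4 (ASCT1) exchanges alanine, serine, cysteine and threonine. Slc3a2 (CD98, 4F2 heavy chain) transports nothing itself and brings light chains such as Slc7a5 (LAT1, large neutral amino acids) and Slc7a11 (xCT, cystine against glutamate) to the cell surface. Several of these genes are known targets of ATF4, a transcription factor that is made when amino acids are scarce or the endoplasmic reticulum is stressed.

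Library depth was similar in all groups, with 40210576 to 49117080 counts and 15935 to 16670 detected genes per library. A count of 3, taken as the detection floor, equalled 0.0611 to 0.0746 CPM before TMM scaling, which covers counting error only. Levels are given below as CPM (the counts of a gene scaled to the total count of its library) after TMM normalization. The targeted gene Syvn1 (chromosome 19, 6046576 to 6053712, plus strand, GRCm38) had 111 and 99.8 CPM in WT fasted liver against 32.6 and 31.5 CPM in HRD1Alb fasted liver. In refed liver it had 637 and 305 CPM in the WT libraries and 453 and 132 CPM in the libraries labelled HRD1Alb. Replicate 1 of the refed libraries labelled HRD1Alb thus lay within the WT range and went against its label, and these libraries are called "labelled HRD1Alb" throughout. The counts are for the whole gene, the study's drawing of the floxed allele has internal exons deleted with exons on either side kept, so that reads of undeleted exons count too, and the exons of Mrpl49 overlap it on the opposite strand. The same replicates also stood apart from each other, since 3204 genes differed at least 2-fold between them against 424 to 1141 genes between the replicates of the other groups. Markers of some other cell types moved with the genotype. The summed level of 8 Kupffer cell and macrophage markers was 91.3 to 105 CPM in WT and 236 to 328 CPM in HRD1Alb fasted libraries. It was 242 to 496 CPM in refed libraries labelled HRD1Alb. The part of these markers in the results was not tested. In bulk liver fewer cells of a type and less RNA per cell cannot be told apart.

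Slc7a11 is shown first by its promoter, because it was the member listed at 0 counts in every WT library. The 250 bases before its transcription start (RefSeq, GRCm38.p6, chr3:50443614-50443863, minus strand) are printed 5′ to 3′, with matches to the C/EBP-ATF response element (CARE) letters TGATGNAA on either strand in capitals.
Slc7a11 promoter: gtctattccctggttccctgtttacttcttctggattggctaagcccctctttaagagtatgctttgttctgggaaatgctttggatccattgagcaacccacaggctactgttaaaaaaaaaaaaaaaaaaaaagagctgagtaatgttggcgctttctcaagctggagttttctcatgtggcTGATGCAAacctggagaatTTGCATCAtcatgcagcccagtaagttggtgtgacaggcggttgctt
The matches began 66 bases (on the strand as printed) and 47 bases (on the strand opposite to the printed one) before the start. Of 32851 mouse promoter windows of the same length, 1134 (3.45%) held at least 1 such match. RefSeq windows were found for 6 of the 10 members with 9 starts in all (Slc7a1, Slc7a11, Slc3a2, Slc1a4, Slc38a2 and Slc38a4). Among these windows only that of Slc7a11 held the CARE letters. Bases further upstream and bases after the start were not searched, so matches there are unknown for every member. The antioxidant response element letters TGACNNNGC, searched on both strands and present in 10.2% of all windows, were found in Slc7a1 (11 bases before its first start) and Slc38a2 (27 bases before its start). The CARE and antioxidant matches were in different genes, and a match describes letters only, not a bound site. Windows for Slc7a2, Slc7a3, Slc7a5 and Slc38a3 were not analysed here.

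Per unit of length, 3 transporters made up most of the transporter mRNA of these livers. The level per length (TMM-normalized RPKM, the CPM divided by the exon length in kilobases) was summed over the 10 genes, and the sum was 735 and 727 in WT fasted, 632 and 619 in HRD1Alb fasted, 637 and 676 in WT refed and 529 and 498 in refed libraries labelled HRD1Alb. The sodium-coupled carriers Slc38a4 and Slc38a3 and the cationic carrier Slc7a2 together held 89.7 to 94.3% of this sum in WT and fasted HRD1Alb libraries, and 83.0 and 88.6% in the refed libraries labelled HRD1Alb. The lowest 2 shares of the 8 libraries were those of this last group. In WT fasted liver the order per length was Slc38a4 at 379 ± 9.09 RPKM (SD, n = 2), Slc38a3 at 216 ± 21.3, Slc7a2 at 91.0 ± 18.6, Slc38a2 at 30.8 ± 1.32, Slc3a2 at 12.7 ± 0.284, Slc1a4 at 1.25 ± 0.0130, Slc7a5 at 0.933 ± 0.177 and Slc7a1 at 0.137 ± 0.0364, with Slc7a3 and Slc7a11 at or near 0. Neighbours in this order did not overlap between libraries except for the lowest pair. In WT refed liver the first 2 changed places, with Slc38a3 at 330 ± 29.6 RPKM and Slc38a4 at 255 ± 0.660 RPKM. In refed libraries labelled HRD1Alb, Slc3a2 stood at rank 3 with 49.4 ± 12.6 RPKM, where it was at rank 5 in each of the other groups. Its 2 values there were 58.3 and 40.5 RPKM, above the 39.8 and 24.3 RPKM of Slc7a2 in the same libraries. In this group the ranges of Slc38a2 and Slc1a4 overlapped, and those of Slc7a5 and Slc7a1 did too.

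**Figure D1:**
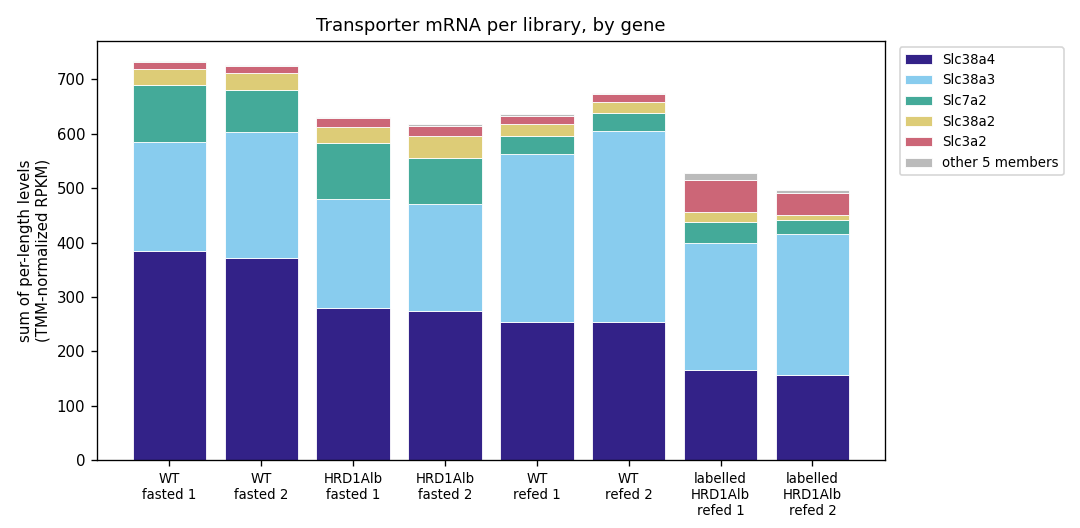
Summed per-length level (TMM-normalized RPKM, y axis) of the 10 transporter genes in each of the 8 libraries (x axis), with 1 colour for each of 5 genes and grey for the other 5. The blue parts, Slc38a4 and Slc38a3, fill most of every bar, Slc7a2 is smaller in the 4 refed libraries, and Slc3a2 is widest in the refed libraries labelled HRD1Alb, where the bars reach 529 and 498.

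Among the sodium-coupled Slc38 carriers, Slc38a4 was lower in the libraries with the HRD1Alb label and lower after refeeding. Slc38a4 (SNAT4, an amino acid carrier made mainly in the liver, chromosome 15, 96994820 to 97055956, minus strand) had 1588 and 1535 CPM in WT fasted, 1151 and 1132 CPM in HRD1Alb fasted, 1048 and 1051 CPM in WT refed and 683 and 650 CPM in refed libraries labelled HRD1Alb. Both libraries of each HRD1Alb group were below both WT libraries of the same feeding condition, and both refed libraries of each genotype were below the fasted ones. In refed liver Slc38a4 fell by 0.65 on the log2 scale (SE 0.149), 1.57-fold, in the libraries labelled HRD1Alb, with an adjusted p of 0.0365 (edgeR quasi-likelihood test, Benjamini-Hochberg over all tested genes). In fasted liver the log2 difference was -0.45 (SE 0.149) with an edgeR adjusted p of 0.172, which did not pass. Between refed and fasted liver it fell by 0.78 on the log2 scale (SE 0.149, edgeR adjusted p = 0.0238) in the libraries labelled HRD1Alb, whereas the WT difference of -0.57 (SE 0.149) had an edgeR adjusted p of 0.107.

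Slc38a3 (SNAT3, a glutamine carrier of hepatocytes that can work in both directions) went the other way with feeding. It had 714 and 820 CPM in WT fasted, 714 and 697 CPM in HRD1Alb fasted, 1100 and 1249 CPM in WT refed and 830 and 921 CPM in refed libraries labelled HRD1Alb. The refed libraries were above the fasted ones in each genotype, and the refed libraries labelled HRD1Alb were below the WT refed ones. None of these differences passed the test. The WT refed against fasted difference was 0.62 on the log2 scale (SE 0.166, edgeR adjusted p = 0.119), and the genotype difference in refed liver was -0.42 (SE 0.166, edgeR adjusted p = 0.125). The ratio of Slc38a3 to Slc38a4 per length was 0.521 and 0.619 in WT fasted, 0.718 and 0.714 in HRD1Alb fasted, 1.22 and 1.38 in WT refed and 1.41 and 1.64 in refed libraries labelled HRD1Alb. All 4 fasted libraries were below 1 and all 4 refed libraries above it, and within each feeding condition the HRD1Alb ratios were above the WT ones. With 2 libraries against 2 an exact permutation test of such a ratio cannot give a p below 0.333.

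Slc38a2 (SNAT2, the carrier of alanine and other small neutral amino acids that cells raise when amino acids are scarce) had 139 and 148 CPM in WT fasted, 135 and 194 CPM in HRD1Alb fasted, 97.6 and 94.9 CPM in WT refed and 82.4 and 42.9 CPM in refed libraries labelled HRD1Alb. The fasted groups overlapped, and the 4 refed libraries were below the 4 fasted ones. It fell by 1.39 on the log2 scale (SE 0.316, edgeR adjusted p = 0.0363) from fasted to refed liver in the libraries labelled HRD1Alb. The same difference in WT liver was -0.58 (SE 0.311, edgeR adjusted p = 0.433), and the genotype difference in refed liver was -0.62 (SE 0.311, edgeR adjusted p = 0.201). The refed replicates labelled HRD1Alb differed by more than this, since replicate 2 was lower than replicate 1 by a log2 difference of -0.94. The genotype difference in refed liver was -1.17 without replicate 1 of that group and -0.23 without replicate 2.

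**Figure D2:**
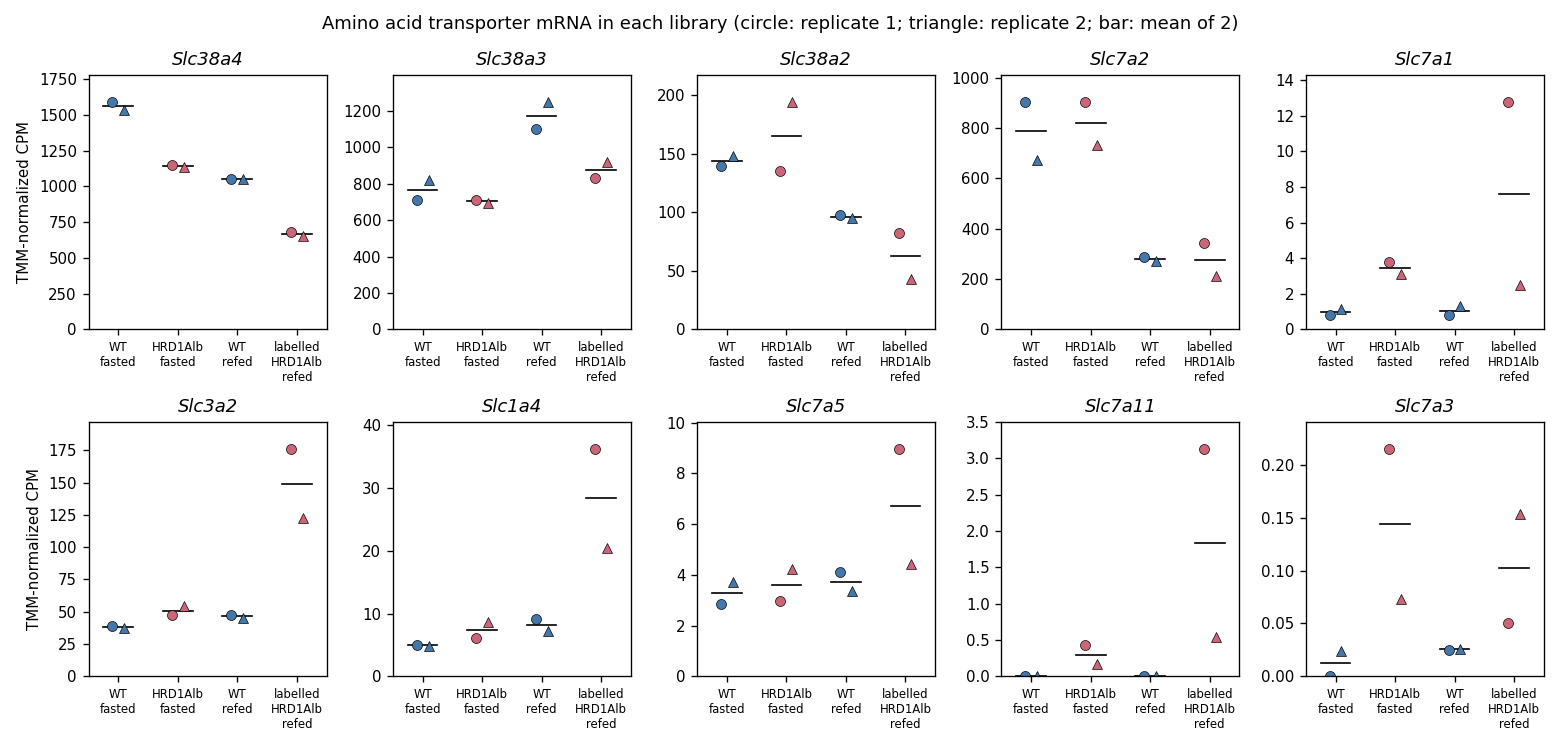
TMM-normalized CPM (y axis, linear and from 0 in each panel) of each of the 10 transporter genes in the 4 groups (x axis), with a circle for replicate 1, a triangle for replicate 2 and a bar for their mean. Slc38a4 steps down from 1588 and 1535 CPM in WT fasted to 683 and 650 CPM in refed libraries labelled HRD1Alb, while Slc3a2 and Slc1a4 are highest in that last group and Slc7a1 and Slc7a11 have widely separated replicates there.

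Among the cationic carriers, Slc7a2 followed feeding and Slc7a1 differed by genotype. Slc7a2 (CAT2, whose liver isoform has a low affinity for arginine, chromosome 8, 40862396 to 40922308, plus strand) had 902 and 674 CPM in WT fasted, 903 and 734 CPM in HRD1Alb fasted, 289 and 272 CPM in WT refed and 345 and 211 CPM in refed libraries labelled HRD1Alb. The genotypes overlapped in each feeding condition, and every refed library was below every fasted one. Slc7a2 fell by 1.49 on the log2 scale (SE 0.274, 2.81-fold, edgeR adjusted p = 0.0399) in WT liver and by 1.56 (SE 0.275, 2.95-fold, edgeR adjusted p = 0.0181) in the libraries labelled HRD1Alb. The difference between these refeeding effects was -0.07 on the log2 scale with a 95% interval from -0.96 to 0.82 (edgeR SE and its moderated degrees of freedom). The genotype differences were 0.06 in fasted and -0.02 in refed liver, with 95% intervals from -0.57 to 0.68 and from -0.64 to 0.61. The exons of Slc7a2 overlap those of Gm26584 on the opposite strand, and whether the counting used strand is not given in the sources used here, so reads of the pair cannot be told apart.

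Slc7a1 (CAT1, the high-affinity arginine carrier of most cells outside the liver, chromosome 5, 148327410 to 148399904, minus strand) was near the lower limit of these livers. It had 32 and 48 counts (0.798 and 1.17 CPM) in WT fasted, 193 and 172 counts (3.77 and 3.12 CPM) in HRD1Alb fasted, 33 and 50 counts (0.815 and 1.31 CPM) in WT refed and 754 and 114 counts (12.8 and 2.50 CPM) in refed libraries labelled HRD1Alb. All 4 libraries with the HRD1Alb label were above all 4 WT libraries. In refed liver Slc7a1 rose by 2.85 on the log2 scale (SE 0.720, 7.19-fold) in the libraries labelled HRD1Alb, with an edgeR adjusted p of 0.0462. The call held in 8 of 17 alternatives and was lost with limma-trend (adjusted p = 0.0621) and with a replicate block (edgeR adjusted p = 0.0696), among others. Replicate 1 of that group decided much of the size, since the log2 difference was 1.23 without it and 3.58 without replicate 2. In fasted liver the log2 difference was 1.81 (SE 0.708), and the edgeR adjusted p of 0.236 did not pass.

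Slc7a3 (CAT3, best known from the brain) had 0 and 1 counts in WT fasted, 11 and 4 in HRD1Alb fasted, 1 and 1 in WT refed and 3 and 7 in refed libraries labelled HRD1Alb. The WT libraries held at most 1 count each, under the floor of 3, and no fold change is given. Slc7a2 made up 99.4 to 99.9% of the per-length sum of the 3 cationic carriers in WT and fasted HRD1Alb libraries, and 95.7 and 98.4% in the refed libraries labelled HRD1Alb. Slc7a1 was thus a minor part of the cationic carrier mRNA in every library, also where it rose.

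The heavy chain Slc3a2 had the smallest adjusted p among the members in both comparisons that involve the refed libraries labelled HRD1Alb. Slc3a2 (chromosome 19, 8706882 to 8723369, minus strand) had 38.9 and 37.7 CPM in WT fasted, 47.1 and 54.7 CPM in HRD1Alb fasted, 47.7 and 45.2 CPM in WT refed and 176 and 122 CPM in refed libraries labelled HRD1Alb. The last group stood above the other 6 libraries, and the fasted HRD1Alb libraries were above the fasted WT ones. In refed liver Slc3a2 rose by 1.69 on the log2 scale (SE 0.207, 3.22-fold) in the libraries labelled HRD1Alb, with an edgeR adjusted p of 0.00991. In fasted liver the log2 difference was 0.41 (SE 0.202), and the edgeR adjusted p of 0.338 did not pass. From fasted to refed liver it rose by 1.55 (SE 0.206, 2.93-fold, edgeR adjusted p = 0.00865) in the libraries labelled HRD1Alb, and the WT difference was 0.28 (SE 0.202, edgeR adjusted p = 0.588). The 2 refeeding comparisons differed by 1.27 on the log2 scale (SE 0.286), with an unadjusted edgeR p of 0.00259 and an adjusted p of 0.544, so the difference itself did not pass.

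Slc7a5, a light chain of Slc3a2, had 2.84 and 3.72 CPM in WT fasted, 2.95 and 4.21 CPM in HRD1Alb fasted, 4.10 and 3.36 CPM in WT refed and 8.97 and 4.43 CPM in refed libraries labelled HRD1Alb. Both libraries of the last group were above the other 6, replicate 2 by a small margin. The log2 difference of 0.85 between genotypes in refed liver (SE 0.375) had an edgeR adjusted p of 0.160 and did not pass. It was 0.24 without replicate 1 of the refed libraries labelled HRD1Alb and 1.26 without replicate 2.

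Slc7a11, the cystine carrier whose promoter is printed above (chromosome 3, 49892526 to 50443614, minus strand), had 0 counts in all 4 WT libraries, 22 and 9 counts (0.430 and 0.163 CPM) in HRD1Alb fasted and 185 and 25 counts (3.13 and 0.548 CPM) in refed libraries labelled HRD1Alb. It entered the fit only through the libraries in which it was detected. It is therefore described without a test and left out of the counts of members in the Results. With WT set at the floor of 3 counts per library, the mean of Slc7a11 was at least 24.1-fold higher in refed libraries labelled HRD1Alb and at least 4.02-fold higher in HRD1Alb fasted liver, and the lower library of each group was at least 7.17-fold and at least 2.21-fold higher. The refed replicates labelled HRD1Alb were far apart, and replicate 2 was lower by a log2 difference of -2.47, at percentile 2.02 of all tested genes.

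The light chains that are known to pair with Slc3a2 (Slc7a5, Slc7a6, Slc7a7, Slc7a8, Slc7a10 and Slc7a11) together were less abundant per length than the heavy chain in every library. The ratio of Slc3a2 to their sum was 5.66 and 5.06 in WT fasted, 3.73 and 4.78 in HRD1Alb fasted, 4.90 and 5.96 in WT refed and 9.02 and 9.99 in refed libraries labelled HRD1Alb. The ratio was highest in the last group, whose light chain sum of 6.46 and 4.05 RPKM also lay above the 3.22 and 2.51 RPKM of WT refed liver. Heavy and light chains were both higher there than in WT refed liver, the heavy chain by the larger factor.

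Slc1a4 (chromosome 11, 20302180 to 20332713, minus strand) moved much like Slc3a2. It had 4.96 and 4.89 CPM in WT fasted, 6.06 and 8.72 CPM in HRD1Alb fasted, 9.14 and 7.14 CPM in WT refed and 36.2 and 20.5 CPM in refed libraries labelled HRD1Alb. Both libraries of the last group were above the other 6. In refed liver Slc1a4 rose by 1.80 on the log2 scale (SE 0.319, 3.48-fold, edgeR adjusted p = 0.0199) in the libraries labelled HRD1Alb. From fasted to refed it rose by 1.94 (SE 0.319, 3.84-fold, edgeR adjusted p = 0.0149) in these libraries, and the WT difference was 0.72 (SE 0.318, edgeR adjusted p = 0.318). In fasted liver the genotypes differed by 0.59 (SE 0.316, edgeR adjusted p = 0.384). Its 2 refeeding comparisons differed by 1.22 on the log2 scale, with an unadjusted edgeR p of 0.0275 and an adjusted p of 0.583.

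Counted over the 8 tested members other than Slc7a11, none passed in HRD1Alb against WT fasted liver. Of all tested genes, 1.35% passed there (0.921% higher and 0.433% lower). In the same comparison 2 members had an unadjusted edgeR p under 0.05, beside 2630 of all 14328 tested genes (18.4%). In refed liver 3 members were higher (Slc3a2, Slc1a4 and Slc7a1) and Slc38a4 was lower in the libraries labelled HRD1Alb, against 11.9% of all tested genes in either direction, 7.09% higher and 4.84% lower. The median log2 difference of the 8 members was 0.42 there and 0.16 in fasted liver, against 0.04 and -0.02 over all tested genes. Refeeding changed 1 member in WT liver (Slc7a2 lower, beside 2.61% of all tested genes, 1.2% higher and 1.41% lower) and 5 in the libraries labelled HRD1Alb (Slc3a2 and Slc1a4 higher, Slc7a2, Slc38a4 and Slc38a2 lower, beside 10.5% of all tested genes, 5.43% higher and 5.05% lower). Groups that did not overlap were common over all genes. In fasted liver 3 members were higher and 1 lower in both HRD1Alb libraries, beside 30.6% and 34.2% of all tested genes, and in refed liver 4 were higher and 3 lower, beside 30.7% and 30.1%. With refeeding 3 members were higher and 3 lower without overlap in WT liver, beside 30.8% and 29.6%, and 4 were higher and 3 lower in the libraries labelled HRD1Alb, beside 29.2% and 29.5%. The genotype and the refeeding comparisons share libraries and are not independent. The difference between the genotype effects in refed and fasted liver passed for 0 members and for 0 of 14328 genes in edgeR, where 2 members and 1209 genes (8.44%) had an unadjusted p under 0.05; DESeq2 called Slc3a2 and 105 genes in all, and limma-trend called 0.

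The refed calls rested on the spread of all 8 libraries. With the 4 refed libraries alone, no member and no gene passed in edgeR. Which members were called, from none to more than in the main fit, changed with the library left out. Such a fit leaves 1 group with 1 library, so only effect sizes are given here. With any 1 library left out, the refed log2 difference was 1.39 to 1.92 for Slc3a2 and 1.325 to 2.148 for Slc1a4. It was 1.23 to 3.58 for Slc7a1 and -0.70 to -0.62 for Slc38a4. The same ranges in fasted liver were 1.555 to 2.138 for Slc7a1, 0.30 to 0.51 for Slc3a2 and -0.47 to -0.43 for Slc38a4.

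**Figure D3:**
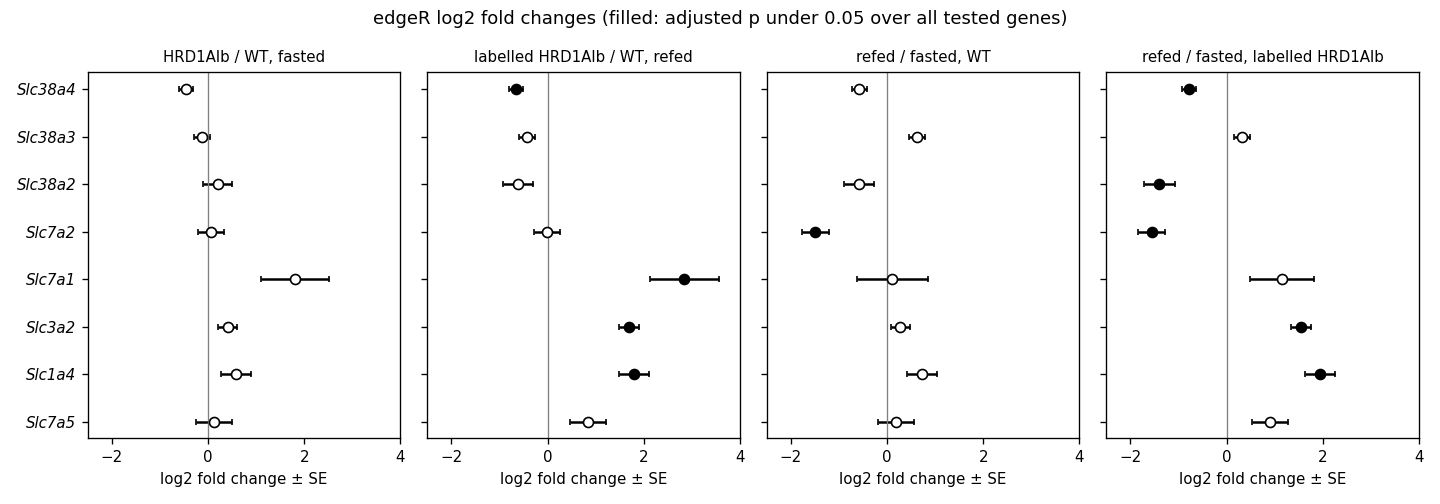
log2 fold change (x axis, points with SE bars) of 8 tested transporters (y axis) in HRD1Alb against WT fasted, labelled HRD1Alb against WT refed, and refed against fasted liver of each genotype, with filled points for an edgeR adjusted p under 0.05 over all tested genes. Slc7a11 is left out because its WT libraries are at 0. No point is filled in the fasted panel, and in the refed genotype panel Slc7a1, Slc3a2 and Slc1a4 lie to the right of 1.5 and Slc38a4 at -0.65.

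The distance between the refed replicates labelled HRD1Alb went with transcript length. Over the 12968 tested genes with a known exon length, Spearman's rho between length and the log2 ratio of replicate 2 to replicate 1 was -0.580 in this group, against -0.111, 0.0313 and -0.105 in WT fasted, HRD1Alb fasted and WT refed, as a description across genes of the same libraries. Slc7a11 (9848 exon bases) and Slc7a1 (7179 exon bases) are long and were lower in replicate 2 by log2 differences of -2.47 and -2.34, while Slc7a2, also long (8662 exon bases), differed by -0.71, Slc7a5 (3517 exon bases) by -1.02 and Slc3a2 (3022 exon bases) by -0.53. After removal of a length trend from each library, Slc7a1 had 11.9 and 3.95 CPM and Slc7a11 had 2.92 and 0.978 CPM in these replicates. With this length offset 4 members passed in refed liver, among them Slc3a2 at a log2 difference of 1.57 (edgeR adjusted p = 0.00468) and Slc1a4 at 1.78 (edgeR adjusted p = 0.00738).

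**Figure D4:**
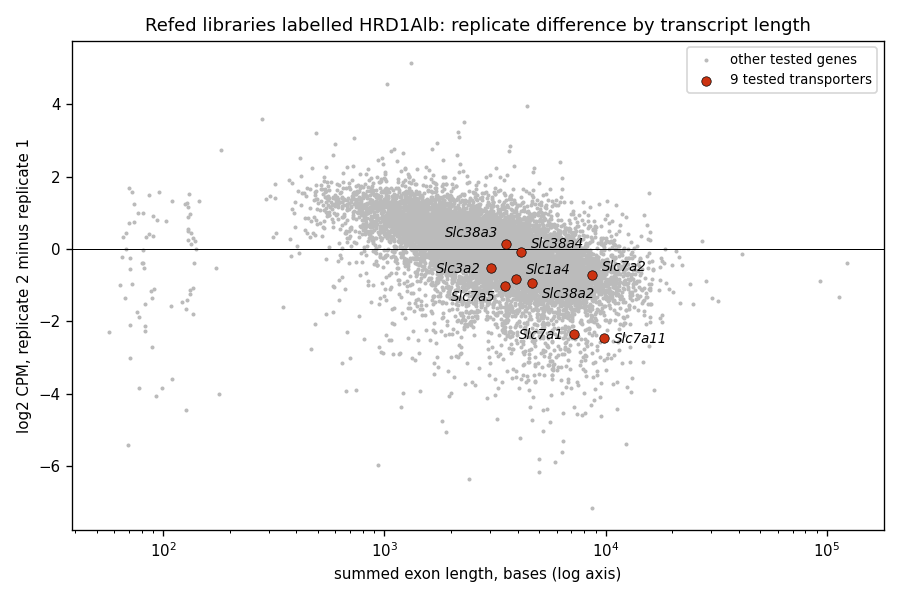
log2 CPM difference of replicate 2 minus replicate 1 (y axis) against summed exon length in bases (x axis, log scale) in the refed libraries labelled HRD1Alb, for tested genes with a known length (grey) and the 9 tested transporters (red). The grey cloud slopes down with length (Spearman's rho -0.580), and Slc7a1 and Slc7a11 lie low at -2.34 and -2.47 while Slc38a3 and Slc38a4 lie near 0.

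The genes most like each member across the 8 libraries were found by the root mean square (RMS) difference of centred log2 CPM among 11920 candidate genes. Slc38a4 was closest to Mob3b (RMS 0.0650) and Ppp2r1b (0.0719), Slc38a2 to Ssh2 (0.126) and Zfp740 (0.129), and Slc7a2 to Tacc2 (0.138) and Slc25a32 (0.169). Slc3a2 was closest to Tubb6 (0.165) and Tpm1 (0.222), Slc1a4 to Lhfpl2 (0.308) and Ier5 (0.317), and Slc7a1 to Slc24a3 (0.322) and Prdm16 (0.412). The RMS runs over single libraries, so a shared gap between the refed replicates labelled HRD1Alb also lowers it. In these replicates Slc24a3 had 4.69 and 1.14 CPM and Prdm16 had 5.87 and 1.49 CPM, beside 12.8 and 2.50 CPM for Slc7a1. Slc7a11 is not compared, because 4 of its 8 libraries are at 0. Among the members themselves the closest pair was Slc3a2 and Slc1a4 (0.246). Genes like Slc7a5 and Slc38a3 were not looked for, because their group means spanned less than 1 log2 unit.

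Of the relatives of these transporters in the same 4 families, 15 of 21 were tested. In refed liver Slc1a5 (ASCT2, a glutamine exchanger), Slc7a8 (LAT2, another light chain) and Slc38a10 rose and Slc3a1 fell in the libraries labelled HRD1Alb. Slc3a1 (rBAT, the heavy chain of the carrier for cystine and dibasic amino acids) had a mean of 14.9 CPM in WT refed liver against 2.04 CPM, and fell by 2.86 on the log2 scale (SE 0.332, edgeR adjusted p = 0.00869). The related heavy chains Slc3a2 and Slc3a1 thus changed in opposite directions in the same libraries. In fasted liver Slc3a1 fell by 2.08 (SE 0.324, edgeR adjusted p = 0.0385) in HRD1Alb liver, and Slc7a8 and Slc38a10 rose. Refeeding changed no relative in WT liver and lowered Slc38a9, a lysosomal amino acid sensor, in the libraries labelled HRD1Alb. The median log2 difference of the tested relatives was 0.83 in fasted and 0.56 in refed liver.

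Of 17 other amino acid transporters, 10 were tested and none passed in fasted liver. In refed liver Slc43a2 (LAT4) rose by 0.77 (SE 0.184, edgeR adjusted p = 0.0412) in the libraries labelled HRD1Alb. Slc36a1 (PAT1, a proton-coupled carrier of lysosomes and the cell surface) had 73.0 and 76.5 CPM in WT refed liver against 31.1 and 34.5 CPM, and fell by 1.19 (SE 0.157, edgeR adjusted p = 0.0111). In WT liver refeeding raised Slc36a1 by 1.43 (SE 0.158, edgeR adjusted p = 0.0145) and lowered Slc6a9, a glycine carrier. In the libraries labelled HRD1Alb refeeding changed none of the 10. Their median log2 difference between genotypes was -0.05 in fasted and -0.21 in refed liver.

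Among 14 genes of the amino acid response, the programme that includes ATF4 targets, 2 rose in fasted HRD1Alb liver (Psat1 and Ddit3). In the refed libraries labelled HRD1Alb 9 rose, with none lower. Phgdh, 1 of these 9, had 0.0494 and 0.0525 CPM in WT refed liver, under the floor of 3 counts. It had 0.288 and 0.701 CPM in the refed libraries labelled HRD1Alb, so its call rests on the libraries where it is high. The smallest adjusted p in refed liver belonged to Ddit3 (CHOP), with 16.1 and 11.3 CPM in WT and 251 and 241 CPM in the libraries labelled HRD1Alb, a log2 rise of 4.17 (SE 0.226, edgeR adjusted p = 0.00126). Psat1 rose by 5.60 (SE 0.429, edgeR adjusted p = 0.00273) and Nupr1, a stress-induced chromatin protein, by 5.74 (SE 0.614, edgeR adjusted p = 0.00820). The median log2 difference of the 14 genes was 1.20 in fasted and 2.51 in refed liver, beside 0.16 and 0.42 for the 8 transporters. Refeeding raised Ddit3 and lowered Chac1 in WT liver and raised 5 of the 14 in the libraries labelled HRD1Alb.

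Of 10 NRF2 targets, a group to which Slc7a11 is also assigned, Hmox1 rose in fasted HRD1Alb liver, and Hmox1, Srxn1 and Gsta1 rose in refed libraries labelled HRD1Alb. Hmox1 (heme oxygenase) had 15.2 and 12.9 CPM in WT refed liver and 61.6 and 61.8 CPM in these libraries, a log2 rise of 2.14 (SE 0.166, edgeR adjusted p = 0.00284). Srxn1 (sulfiredoxin) had 108 and 81.6 CPM in WT refed liver and 206 and 173 CPM in these libraries, Gsta1 rose by 3.42 on the log2 scale, and the other 7 did not pass. Among these 7, Gclm, Gclc and Txnrd1 had negative log2 differences, of -0.84, -0.50 and -0.37 in refed liver. In fasted liver they were -0.55, -0.62 and -0.46. The rest of the 7, Abcc4, Gstm1, Nqo1 and G6pdx, had positive differences, of 2.61, 0.72, 0.47 and 0.14 in refed liver. Their fasted differences were 1.02, 0.29, 0.08 and 0.37. The median log2 difference of the 10 genes was 0.18 in fasted and 0.59 in refed liver. Refeeding changed none of them in WT liver and raised Srxn1 and Hmox1 in the libraries labelled HRD1Alb.

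None of 17 enzymes of the carried amino acids (such as the arginase Arg1 and the glutaminase Gls2) passed the test between genotypes in either feeding condition. Their median log2 differences were -0.16 in fasted and -0.31 in refed liver. The urea cycle enzyme Ass1, also among the 17, had only 0.563 to 2.67 CPM in these counts, against 470 to 1661 CPM for Asl. Whether the counts of Ass1 reflect its mRNA level in the liver was not tested. At so few counts the lack of a call for Ass1 is not evidence of no change. Refeeding lowered Got1 (aspartate aminotransferase) in WT liver, by 1.44 on the log2 scale (SE 0.236, edgeR adjusted p = 0.0336), and in the libraries labelled HRD1Alb, by 1.14 (SE 0.234, edgeR adjusted p = 0.0285).

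The liver origin of the libraries was checked by markers. None of 8 hepatocyte markers was at 0, and their summed level was 143042 to 153626 CPM in WT fasted, 92132 to 92859 in HRD1Alb fasted, 111752 to 118170 in WT refed and 65387 to 102689 CPM in refed libraries labelled HRD1Alb. Between genotypes, 0 of the 8 passed in fasted liver and 2 were lower in refed liver. Of 8 Kupffer cell and macrophage markers, 2 were higher in fasted and 7 in refed liver of the HRD1Alb label, and all 8 were above WT in both libraries of each group. The 7 stellate cell and fibroblast markers summed to 67.7 to 134 CPM in WT, 157 to 173 CPM in HRD1Alb fasted and 139 to 214 CPM in refed libraries labelled HRD1Alb, with 0 and 3 higher. None of 6 endothelial and none of 6 cholangiocyte markers passed between genotypes in either feeding condition. The endothelial sum was 93.7 to 102 CPM in WT fasted and 104 to 115 CPM in HRD1Alb fasted liver. The cholangiocyte sum was 42.4 to 68.6 CPM and 32.8 to 37.2 CPM in the same groups. Of 7 tested lymphocyte and neutrophil markers, 0 were higher in fasted and 2 in refed liver of the HRD1Alb label. Of 5 proliferation markers, 0 and 2 were higher. The Kupffer cell, macrophage, stellate cell and fibroblast markers moved in the same direction as Slc3a2, Slc1a4 and Slc7a1 and opposite to Slc38a4. The hepatocyte sum was lower with the HRD1Alb label in each feeding condition, the direction of Slc38a4. The part of all these markers in the transporter levels was not tested.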

How the data were processed

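Liver RNA of 8 mouse samples was sequenced on an Illumina NextSeq 500 with a lane per sample. The authors deposited whole-number read counts per gene symbol, with 1 file per sample and no normalization. The study's methods name ERANGE for counting and limma for testing, whereas the submitters' processing notes name cutadapt, STAR, HTSeq, DESeq2 and mm10, so the counter is uncertain and its strand setting is not given in the sources used here. The paper's RPKM values and test results were not used here. Samples were grouped by their titles. The members and gene lists were chosen with earlier results of these data known.

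Counts were fitted in R 4.3.3 with edgeR 4.0.16 (filterByExpr with a minimum count of 10 and a minimum total of 15, TMM factors of 0.837 to 1.22, glmQLFit with 1 coefficient for each group over all 8 libraries), which kept 14328 of 18084 genes with any count. Dispersion was 0.0573 in common, with 3.38 prior degrees of freedom in the median. The 5 comparisons set the genotypes against each other under each feeding condition, set refed against fasted liver in each genotype, and tested the interaction. Genes with a Benjamini-Hochberg adjusted p under 0.05, over all tested genes, were called. SE is the absolute log2 fold change over the square root of F. Levels per length used exon lengths of GENCODE M21 on GRCm38, which were found for 12968 tested genes (90.5%). Motifs were searched in RefSeq promoter windows (GRCm38.p6).

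The genes named were the 10 members, Syvn1, up to 3 called genes of each list with the smallest adjusted p in refed liver, and for members whose group means spanned at least 1 log2 unit the 2 nearest genes with a mean of at least 1 CPM. Slc38a9, Slc6a9, Chac1, Got1, Slc38a10, Phgdh and example enzymes were named after their values were seen, to resolve small counts. So were Gclm, Gclc, Txnrd1, Abcc4, Gstm1, Nqo1 and G6pdx. Alternatives were RLE normalization, DESeq2 1.42.0, limma-trend (limma 3.58.1), other count filters, a replicate block, a length offset, only the compared groups, and each library left out. Replicates were distinct libraries, since the chi-square per degree of freedom between replicates was 43.3 to 333. The fit was tested on simulated data. Figures used Python 3.11.15 and matplotlib 3.10.9.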

Additional observations from a re-analysis of the deposited data

How the results depend on the processing

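Of 749 values of the tested members under alternatives, 635 kept direction and side of the threshold, 60 lost it, 32 gained it and 22 changed sign, none of the last being called. Counts of members here include Slc7a11, which entered the fit only through the libraries in which it was detected, so its calls carry no weight. Without Slc7a11 the refed count in the main fit was 4. Slc7a11 was the 1 member called in fasted liver with the length offset and replicate block, and was among the 2 called there with DESeq2. Members called in fasted liver (0) became 2 with DESeq2 and with only the compared groups and 1 with the length offset and replicate block (0 to 4 with 1 library left out). In refed liver 5 became 0 with only the compared groups (0 to 6 with 1 library left out), and in labelled HRD1Alb liver refeeding gave 5, or 0 with only the compared groups (0 to 8 with 1 left out). Refeeding in WT gave 1, or 3 with DESeq2 and 4 with only the compared groups (0 to 3 with 1 left out), and Slc7a2 passed in 11 of 17 alternatives. The interaction gave 0, or 1 with DESeq2 (0 to 2 with 1 left out). The replicate numbers share only a number: same-numbered libraries deviated with r of 0.0161 to 0.179, and the replicate block left 4 of 5 refed calls (Slc7a1 at an edgeR adjusted p of 0.0696) and changed no other member call. Sign changes concerned Slc7a2 between genotypes, in fasted liver (0.06 became -0.023 with the length offset and -0.021 with the block added, -0.11 to 0.28 with 1 library left out) and in refed liver (-0.02 became 0.021 with 10 counts required in every sample, 0.30 with the length offset and 0.31 with the block added, -0.42 to 0.29 left out), and its interaction (-0.07 became 0.33 and 0.33 with the length offsets, -0.47 to 0.24 left out). With 1 library left out they also concerned fasted Slc7a5 (-0.16 to 0.37), Slc38a3 (-0.22 to 0.015) and Slc38a2 (-0.087 to 0.43), refeeding of Slc7a1 in WT (-0.27 to 0.44) and labelled HRD1Alb liver (-0.47 to 1.89), and its interaction (-0.58 to 1.78). The cause was not tested. All genes called in fasted liver were 194, or 1094 (DESeq2), 323 (no filter), 119 (block), 788 (length offset), 670 (with block) and 2033 (only the compared groups), 0 to 3159 with 1 left out. In refed liver they were 1709, or 3190 (DESeq2), 2725 (length offset), 2733 (with block) and 0 (only the compared groups), 1 to 7705. For refeeding in WT they were 374, or 1086 (DESeq2), 774 (length offset), 709 (with block) and 1882 (only the compared groups), 0 to 2508, and in labelled HRD1Alb liver 1501, or 2921 (DESeq2) and 0 (only the compared groups), 15 to 7496. For the interaction they were 0, or 105 (DESeq2) and 2 (no filter), 0 to 4878. The length offset moved the median of all genes in fasted liver from -0.02 to -0.12. Depth limits Slc7a3 and Slc7a11, whose WT counts were at or under 3, and with 2 libraries a group no member's size is known closely.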
